A study of Canis lupus familiaris with 12 samples.

Results

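Liver gene expression was compared between senior female beagles kept on either of a pair of diets, one based on animal protein (APB) and one based on plant protein (PPB), with 3 dogs on each. These 6 dogs were chosen by the age and diet in their sample titles out of 12 dogs in all, and every dog gave 1 liver RNA sample and 1 Affymetrix Canine Genome array, so each replicate was a separate animal. The senior dogs were 11.1 years old on average when the diets began and 12 years old at sampling, after 12 months on the diet, and livers were taken after a fast of 12 h. The question was whether the diet altered hepatic gene expression at this age.

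The APB diet was built on brewer's rice, poultry by-product meal and poultry fat, with about 28% protein, 23% fat and 5% fiber and 5.38 kcal per g. The PPB diet was built on corn, soybean meal and wheat middlings with some meat and bone meal, with about 26% protein, 11% fat and 15% fiber and 4.75 kcal per g. Protein source, fat, fiber and energy density therefore differed together and cannot be told apart here. All senior dogs were fed to keep their baseline body weight, and those on PPB ate more food. The other 6 dogs were female beagles aged 1 year that were growing, fed freely, came from another supplier and were split over the same diets, again 3 on each. Their arrays served for a shared estimate of the spread and for setting the diet difference of the ages side by side.

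As background, the liver makes cholesterol and fatty acids, exports them in lipoproteins and burns fatty acids during a fast. Genes of cholesterol synthesis are switched on together by the factor SREBP2 when sterols in the cell run low, genes of fatty acid synthesis by SREBP1 in the fed state, and genes of fatty acid oxidation by PPAR alpha in the fasted state. Hepatocytes hold most of the RNA of a liver sample, but bile duct cells (cholangiocytes), stellate cells, endothelial cells and resident macrophages (Kupffer cells) contribute too. In whole tissue, fewer cells of a type and less RNA per cell cannot be told apart.

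The arrays carried the markers of liver. Albumin (ALB) lay between 15.00 and 15.20 on the log2 scale in all 6 dogs, and transthyretin (TTR) between 14.42 and 14.76. One array stood apart: over the probe sets tested, senior PPB dog 2 correlated with the other senior arrays at 0.93 to 0.97 with a median of 0.948, while the medians of the other 5 arrays lay between 0.965 and 0.975. Signal from the 3′ end of control transcripts exceeded that from the 5′ end more in the APB dogs, a measure that widens as RNA is shortened or copied incompletely. This 3′ minus 5′ difference was 4.97, 7.03 and 3.53 in the APB dogs and 4.53, 2.32 and 4.12 in the PPB dogs on the log2 scale. The means of 5.18 ± 1.76 and 3.66 ± 1.18 (SD, n = 3 each) differed by 1.52 with p = 0.4 in a two-sided exact permutation test, for which 0.1 is the smallest value that 3 dogs against 3 allow. Values without senior PPB dog 2 and with the 3′ minus 5′ covariate in the model therefore follow the main genes and lists, and follow any other gene whose difference they changed by more than 1.5 times. Beyond those values the part of RNA quality in the results was not tested.

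No probe set passed the thresholds for diet in senior dogs. Of 12425 probe sets tested with limma, 0 (0%) had an adjusted p under 0.1 with a change of more than 2-fold, and no adjusted p was below 0.919. Before adjustment, 377 probe sets had p under 0.05, 215 higher with APB (1.73% of those tested) and 162 lower (1.30%). A difference of more than 2-fold was measured for 497 probe sets, 239 of them higher and 258 lower with APB. The 3 dogs of one diet lay wholly above the 3 of the other for 450 probe sets that were higher with APB (3.62%) and 492 that were lower (3.96%), and 106 of these 942 also differed more than 2-fold. With no diet effect, 3 dogs against 3 are wholly apart, in either direction, at an average rate of 0.1. Neither the 942 nor the 3.03% of probe sets at an unadjusted p under 0.05 exceeded the rate that no effect would give. The median standard error of a difference was 0.29 on the log2 scale. With 3 dogs per diet, neither the differences below 2-fold nor the 497 above it were resolved after adjustment. Because nothing passed, the genes and groups below are described by their values, and "higher" and "lower" stand for means of 3 dogs.

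The count at an unadjusted p under 0.05 depended on single dogs. Leaving out senior PPB dog 2 gave 148 and leaving out senior PPB dog 1 gave 1305, while 640 were counted with senior APB dog 3 left out and 242 with senior APB dog 1 left out. Adding the 3′ minus 5′ covariate gave 251. The count past the thresholds was 0 without senior PPB dog 2 and with the covariate.

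Only 5 probe sets combined an unadjusted p under 0.005 with more than 2-fold, and 3 of these had a gene symbol: PDLIM3, ALDH1A1 and MFSD2A. DMBT1, described below, differed more, by −2.24, and narrowly missed this cut with an unadjusted p of 0.0053 by limma. The study also names the genes that passed, and earlier results were known here, so their passing is not an independent recovery. PDLIM3, a LIM protein that binds actinin at the Z-line of muscle, measured 4.59, 5.86 and 5.60 in the APB dogs and 3.50, 3.81 and 3.87 in the PPB dogs. Every APB dog lay above every PPB dog, and the PPB values were close to the floor of 3 used for testing. The difference was 1.62 ± 0.33 (SE) on the log2 scale with a 95% interval of 0.88 to 2.36, or 3.08-fold. PDLIM3 was also 1 of 10 striated muscle markers tested, and the other 9 differed by −0.37 to 0.36, with 3 of them higher and 6 lower. Of these, MYL2, a myosin light chain of heart and slow muscle, measured 3.43, 4.43 and 3.42 against 3.38, 3.42 and 3.40, with APB dog 2 alone above the rest. Its difference of 0.36 was 0.21 with the covariate.

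ALDH1A1, the cytosolic enzyme that oxidizes retinaldehyde to retinoic acid, measured 12.38, 13.02 and 12.28 with APB and 11.69, 11.12 and 11.49 with PPB. The groups did not overlap, at a difference of 1.13 ± 0.30 (95% interval 0.46 to 1.80), or 2.18-fold. MFSD2A, a transporter of lysophosphatidylcholine that carries long-chain omega-3 fatty acids, ran the other way, with 5.46, 5.07 and 5.20 under APB and 6.34, 7.05 and 6.36 under PPB. The difference was −1.34 ± 0.32 (95% interval −2.06 to −0.62), which is 2.53-fold higher with PPB. Without senior PPB dog 2 the differences were 1.66 for PDLIM3, 0.97 for ALDH1A1 and −1.11 for MFSD2A, and with the covariate they were 1.47, 0.87 and −1.06. The adjusted p of all 3 was 0.919 by limma, so none of them passed the thresholds. The study reported these genes as altered by diet in senior dogs, in the same directions. That call was not reproduced here, and the reason was not tested.

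**Figure D1:**
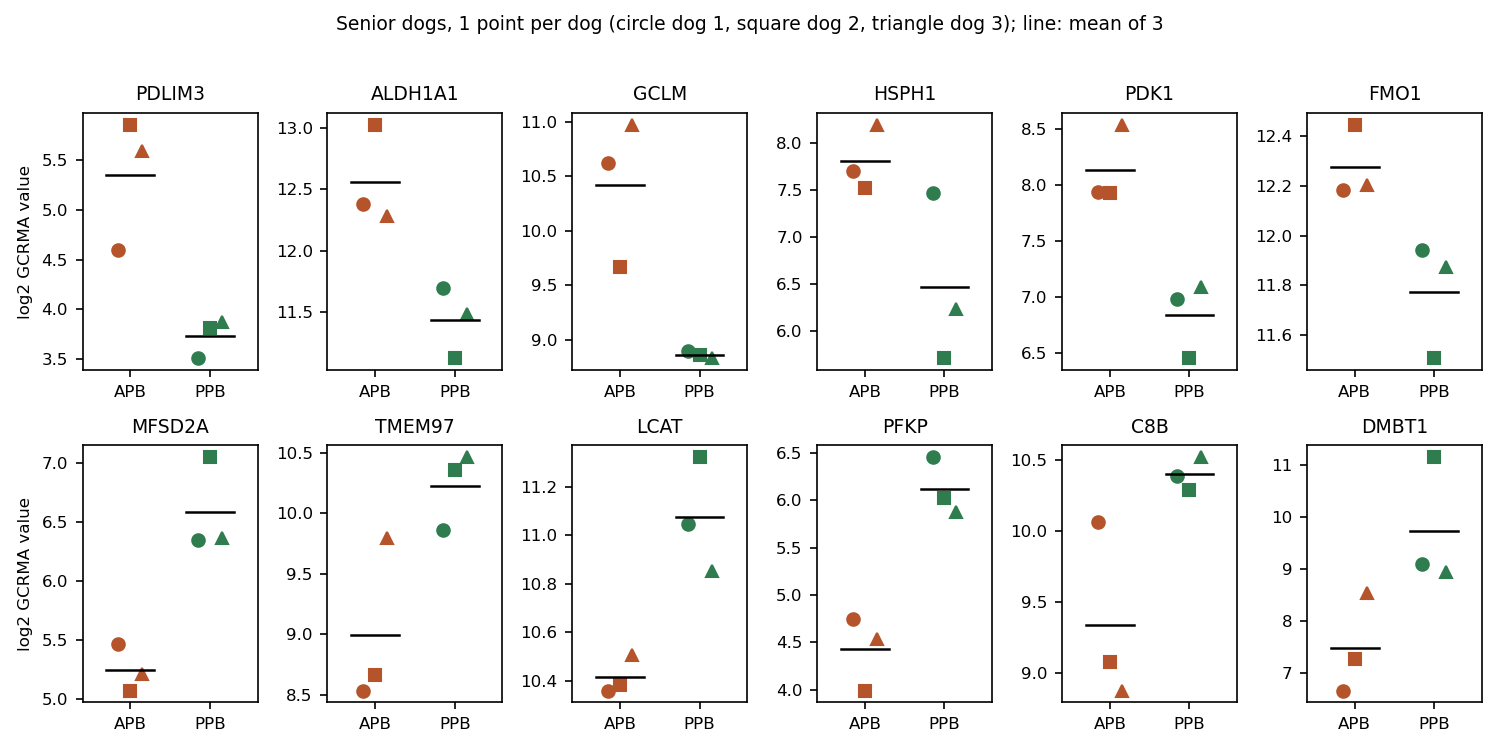
Log2 GCRMA values (y axis, one scale per panel that does not start at 0) of 12 genes in the senior dogs by diet (x axis), 1 point per dog with the marker giving the dog's number within its diet and a line at the mean of 3. In all 12 panels the 3 APB dogs lie wholly above (top row) or wholly below (bottom row) the 3 PPB dogs, and the genes were chosen for that or for a small p, so the gaps are a description.

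Among the genes that were more than 2-fold apart without overlap, 35 probe sets with a gene symbol were higher with APB and 27 were lower, and the 15 of smallest p in each direction are described here. The 15 that were higher with APB differed by 1.02 to 1.76 on the log2 scale. TUSC3, a subunit of the complex that attaches N-linked sugars, measured 6.34, 6.46 and 4.39 against 4.22, 4.08 and 4.37, so that APB dog 3 lay barely above PPB dog 3. PDK1, the kinase that turns off pyruvate dehydrogenase, measured 7.94, 7.93 and 8.54 against 6.99, 6.45 and 7.09, a difference of 1.30 ± 0.48, and its second probe set differed by 0.89, again without overlap.

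Protein quality control was represented by HSPH1 and ATG3. HSPH1, a large heat shock chaperone, measured 7.70, 7.52 and 8.19 with APB and 7.46, 5.71 and 6.24 with PPB, where PPB dog 1 sat next to the APB dogs. ATG3, the enzyme that joins LC3 to lipid in autophagy, measured 10.84, 9.91 and 10.26 against 9.73, 8.37 and 9.54. Their differences of 1.33 and 1.12 were 0.95 and 0.70 when senior PPB dog 2 was left out. The amyloid precursor protein gene APP (1.06), the desmosomal cadherin DSC2 (1.30), the DNA repair subunit NSMCE4A (1.34) and the efflux transporter ABCC11 (1.76) were also among the 15. APP, ABCC11 and GOT2 had probe sets that disagreed in size or sign. A second APP probe set differed by 0.08. A second ABCC11 probe set differed by −0.00, at 3.35 to 3.38 in all 6 dogs, close to the floor of 3 used for testing. While one probe set of GOT2, the mitochondrial aspartate aminotransferase, was 1.36 higher with APB, its 5 others differed by −0.05 to −1.47.

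The 15 probe sets that were lower with APB stood for 14 genes and differed by −1.01 to −2.24. DMBT1, a secreted glycoprotein of mucosal defense, measured 6.66, 7.27 and 8.53 with APB and 9.09, 11.15 and 8.94 with PPB. TFF3, a trefoil peptide secreted with mucus, measured 7.20, 6.13 and 7.64 against 7.99, 10.49 and 7.91. In both genes senior PPB dog 2 was the highest of the 6, and without it the differences of −2.24 and −1.80 became −1.53 and −0.96.

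MYL9, the regulatory myosin light chain of smooth muscle, measured 5.54, 5.10 and 5.58 against 6.01, 8.25 and 6.48, again highest in senior PPB dog 2. Its difference of −1.51 became −0.84 without that dog. PFKP, the platelet form of phosphofructokinase, measured 4.75, 3.99 and 4.54 with APB and 6.46, 6.02 and 5.88 with PPB. All 3 PPB dogs contributed, and the difference was −1.70 ± 0.55, −1.74 without senior PPB dog 2 and −1.33 with the covariate. A second probe set differed by −1.15, also without overlap, but by −0.79 with the covariate. Its APB values of 3.65, 2.97 and 3.62 were close to the floor of 3 used for testing. Lipid genes among the 15 were TMEM86B, which cleaves lysoplasmalogens (−1.92), CHKA, the choline kinase that opens phosphatidylcholine synthesis (−1.21), and MFSD2A. C8B, the beta chain of complement component C8, measured 10.06, 9.08 and 8.88 with APB and 10.39, 10.29 and 10.52 with PPB, and PCOLCE, which speeds the trimming of procollagen, differed by −1.11, or −0.69 without senior PPB dog 2.

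Of the 15 higher probe sets, 8 were still more than 2-fold apart without senior PPB dog 2 and 9 with the 3′ minus 5′ covariate. Of the 15 lower ones, 11 were in both cases.

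Pathways were read through 42 lists, 31 of pathways and 11 of cell type markers, with 488 genes tested. None of the 488 passed the thresholds. At an unadjusted p under 0.05, 8 of them (1.64%) were higher with APB and 11 (2.25%) were lower, against 1.85% and 1.70% of all 4763 genes tested. The groups did not overlap for 15 (3.07%) that were higher and 18 (3.69%) that were lower, against 4.12% and 3.51% of all genes. The listed genes thus stood out at about the background rate. The median difference over all genes was 0.02 on the log2 scale, with the quartiles at −0.21 and 0.32, and list medians are to be read beside these.

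**Figure D2:**
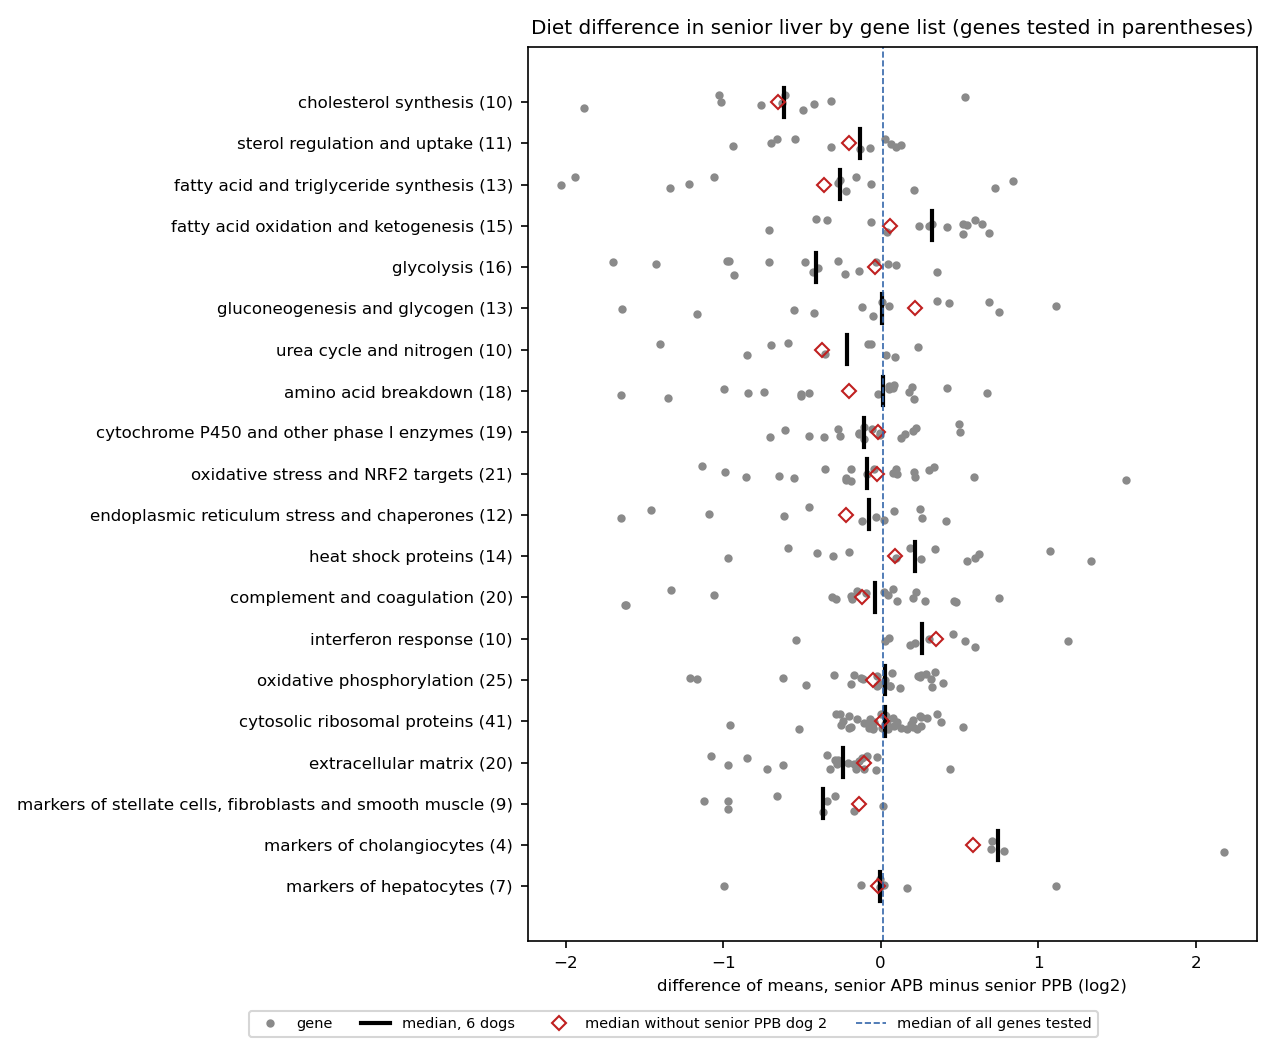
Difference of means between senior APB and senior PPB dogs (x axis, log2) for the genes tested in 20 of the 42 lists (y axis, number of genes in parentheses), with a bar at the list's median, a diamond at the median without senior PPB dog 2 and a dashed line at the median of all genes (0.02). Cholesterol synthesis has the lowest median of the lists drawn, −0.62, and the diamond of glycolysis lies near 0, at −0.04.

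Cholesterol synthesis had the lowest median difference of the 31 pathway lists. Of its 23 genes, 10 were tested, and 9 of these were lower with APB, with a median of −0.62. EBP, the sterol isomerase, measured 11.45, 10.73 and 11.08 with APB and 11.27, 12.33 and 12.68 with PPB. FDPS, which makes farnesyl diphosphate, measured 10.16, 7.65 and 11.45 against 10.16, 12.52 and 12.22. FDFT1, squalene synthase, measured 9.07, 9.40 and 9.98 against 9.69, 10.64 and 11.21.

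PPB dogs 2 and 3 were the highest of the 6 in all of EBP, FDPS and FDFT1, while PPB dog 1 lay within the APB range. The differences of these 3 were −1.01, −1.88 and −1.03, more than 2-fold each, with standard errors of 0.61, 1.56 and 0.92. With the covariate they were −0.73, −0.29 and −0.28, none of them 2-fold, and without senior PPB dog 2 they were −0.89, −1.44 and −0.96. The standard errors rest on all 12 arrays, and the spread was widest in the young adult APB dogs, with SDs of 1.23, 3.42 and 2.22. These SDs were 0.36, 1.93 and 0.46 in the senior APB dogs and 0.73, 1.28 and 0.77 in the senior PPB dogs. In the young adult PPB dogs they were 0.63, 0.48 and 0.51. No member had an unadjusted p under 0.05, and no member's groups were free of overlap. MVD, mevalonate diphosphate decarboxylase, differed by −0.60, or −0.36 without senior PPB dog 2. The one gene that was higher with APB was HMGCS1, the cytosolic HMG-CoA synthase early in the pathway, at 0.54 ± 0.65, or 0.82 with the covariate, and it is named here after its value was seen. The median was −0.65 without senior PPB dog 2, again with 9 lower, and −0.33 with the covariate, with 8 lower.

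In the list of sterol regulation and uptake, 1 of 11 genes tested, LCAT, was lower with APB without overlap, against 3.51% of all genes. LCAT, the enzyme that esterifies cholesterol in plasma lipoproteins, measured 10.36, 10.38 and 10.51 with APB and 11.04, 11.32 and 10.85 with PPB. Its difference was −0.66 ± 0.23, or 1.58-fold higher with PPB, and −0.53 without senior PPB dog 2. TMEM97, a membrane protein of sterol handling also known as the sigma-2 receptor, is on neither sterol list. It was among the 15 lower probe sets, which were selected for groups that do not overlap. TMEM97 measured 8.53, 8.66 and 9.79 against 9.86, 10.36 and 10.46, a difference of −1.23 ± 0.45 that was −1.17 without senior PPB dog 2. Of the 11 genes tested in the list of sterol regulation and uptake, which holds LCAT, 7 were lower, with a median of −0.13 that was −0.20 without senior PPB dog 2 and −0.19 with the covariate. INSIG1, which retains SREBP in the endoplasmic reticulum and is itself an SREBP target, differed by −0.94 ± 0.61, and SOAT2, which esterifies cholesterol inside the hepatocyte, by −0.70 ± 0.39. With the covariate these were −0.60 and −0.35, and SOAT2 was −0.39 without senior PPB dog 2.

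Fatty acid and triglyceride synthesis showed a like spread. Of 13 genes tested, 10 were lower with APB, the median was −0.26, and 5 were more than 2-fold lower, MFSD2A among them. FADS1, the delta-5 desaturase of polyunsaturated fatty acids, measured 11.53, 10.05 and 7.26 with APB and 10.75, 12.32 and 11.87 with PPB. ACSS2, which makes acetyl-CoA from acetate in the cytosol, measured 8.30, 5.99 and 9.87 against 8.25, 11.22 and 10.51. Both varied as much among the APB dogs as between diets, with differences of −2.03 ± 0.96 and −1.94 ± 1.33. With the covariate FADS1 was −2.18 but ACSS2 was −0.55. The median was −0.36 without senior PPB dog 2 and −0.09 with the covariate, where 8 of 13 were lower. The mean deviation of the list was −0.05, −0.76 and 0.03 in the APB dogs and 0.05, 0.46 and 0.27 in the PPB dogs. APB dog 2, the lowest, also had the widest 3′ minus 5′ difference of the 6, at 7.03.

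Fatty acid oxidation and ketogenesis leaned the other way while senior PPB dog 2 was included. Of 15 genes tested, 11 were higher with APB, with a median of 0.32 that was 0.06 without senior PPB dog 2 and 0.23 with the covariate. ECI2, an isomerase for unsaturated fatty acids, measured 11.74, 11.70 and 11.34 with APB and 11.05, 10.57 and 11.23 with PPB. Its groups did not overlap, at 0.64 ± 0.22, and 0.45 without senior PPB dog 2. ACAA2, the last thiolase of mitochondrial beta-oxidation, measured 13.59, 13.16 and 13.15 against 13.23, 11.92 and 13.18, so that its difference of 0.52 came from 1 dog and was 0.10 without it. ETFB, a subunit of the electron carrier of beta-oxidation, did not overlap in the opposite direction, at −0.41, or −0.18 with the covariate. Of the 16 targets of PPAR alpha tested, 10 were higher and 6 lower, with a median of 0.18, or 0.03 without senior PPB dog 2 and 0.15 with the covariate.

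Glycolysis had a median of −0.41 over 16 genes, 13 of them lower with APB. Without senior PPB dog 2 the median was −0.04 with 10 lower, and with the covariate −0.13 with 11 lower. PFKP was the only one with an unadjusted p under 0.05 or without overlap. ENO3, the muscle form of enolase, differed by −1.43 ± 0.85, and TPI1, triosephosphate isomerase, by −0.71 ± 0.50. With the covariate they were −0.63 and −0.16, and TPI1 was −0.33 without senior PPB dog 2. Gluconeogenesis and glycogen had 7 of 13 genes higher with APB and a median of 0.01, but 8 of 13 and a median of 0.22 both without senior PPB dog 2 and with the covariate. G6PC1, the glucose-6-phosphatase that releases glucose, differed by 0.44 ± 0.27.

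Growth factor genes varied widely between dogs. IGF1, the growth factor that the liver secretes under growth hormone, measured 5.82, 3.69 and 4.20 with APB and 5.40, 6.50 and 6.63 with PPB, a difference of −1.61 ± 0.73. APB dog 1 lay above PPB dog 1, so the groups overlapped. IGFBP2, one of its binding proteins, differed by −1.83 ± 1.28, with 8.16 in APB dog 1 and at least 11.08 in the other 5 dogs, and by −0.96 with the covariate.

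**Figure D3:**
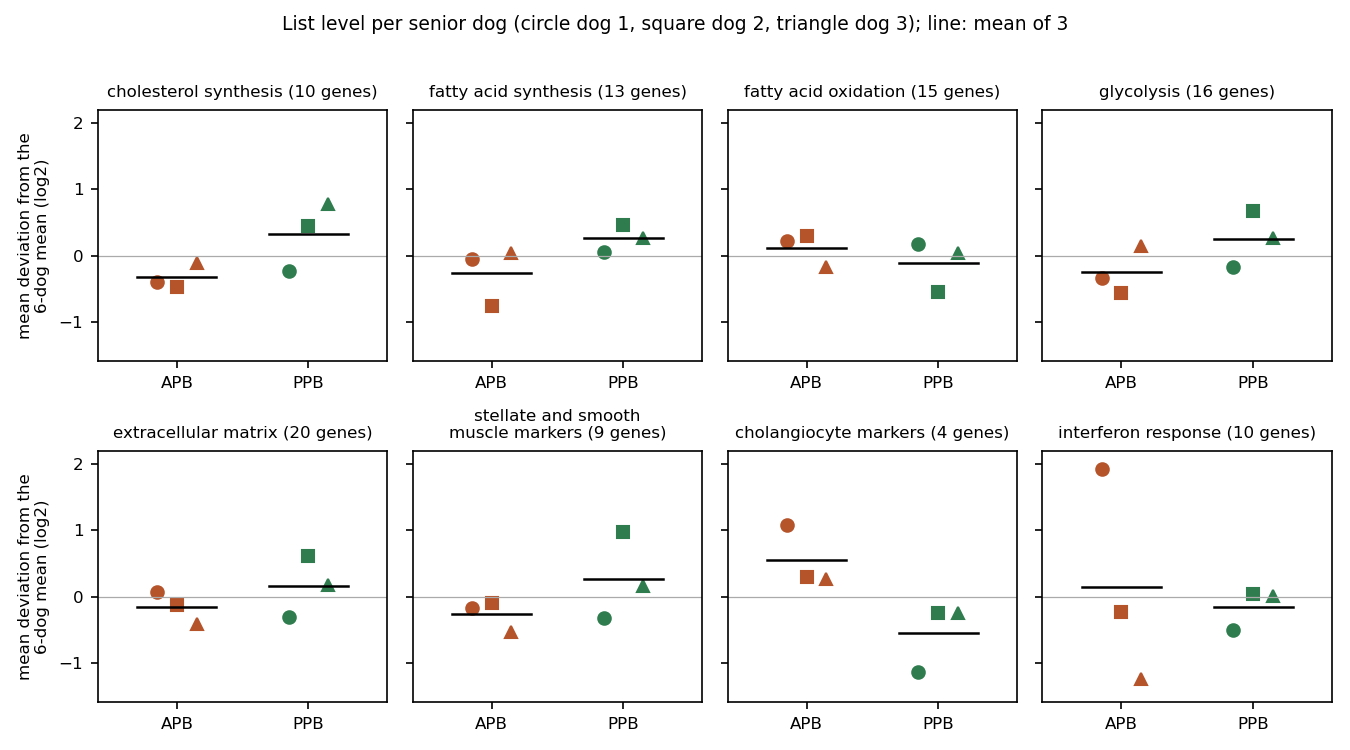
Level of 8 lists in each senior dog (y axis, mean over the list's genes of the deviation from the 6-dog mean of each gene, log2) by diet (x axis), 1 point per dog and a line at the mean of 3. The diets overlap in 6 of the 8 lists drawn. They do not overlap for the 4 cholangiocyte markers nor, narrowly (APB at most 0.03, PPB at least 0.05), for fatty acid synthesis. These lists hold WFDC2 and MFSD2A, genes the study had reported, and were chosen with earlier results known, so their gaps are a description. None of the 4 cholangiocyte markers separates the diets by itself. Senior PPB dog 2 (green square) is the highest dog for stellate and smooth muscle markers, at 0.98.

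The lists of nitrogen metabolism shifted with the dogs included. Of 10 genes tested of the urea cycle and nitrogen handling, 7 were lower with APB, with a median of −0.22, or −0.37 without senior PPB dog 2 and −0.02 with the covariate. ASL, argininosuccinate lyase, differed by −0.59 ± 0.44, or −0.19 with the covariate. Amino acid breakdown had 9 of 18 genes in each direction and a median of 0.02. Without senior PPB dog 2, 14 of the 18 were lower with a median of −0.20, and with the covariate 11 were lower with a median of −0.08. The 13 genes of methionine, cysteine and one-carbon metabolism had 9 lower and a median of −0.18.

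Of the 21 genes tested of oxidative stress and NRF2 targets, 1 was higher with APB without overlap (GCLM) and 1 was lower (KEAP1). Among all genes these shares were 4.12% and 3.51%. GCLM, the modifier subunit of the enzyme that limits glutathione synthesis, measured 10.62, 9.67 and 10.97 with APB and 8.90, 8.86 and 8.83 with PPB. The PPB dogs lay close to each other and below all APB dogs, and the difference was 1.56 ± 0.65, with or without senior PPB dog 2. KEAP1, which marks the factor NRF2 for degradation, measured 8.71, 8.77 and 8.68 against 9.13, 9.73 and 9.24, a difference of −0.65 ± 0.23 that was −0.46 without that dog. GCLM is itself a target of NRF2, but the 21 genes of oxidative stress and NRF2 targets had 9 higher and 12 lower, with a median of −0.09.

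Drug metabolism was read through phase I enzymes. FMO1, a flavin monooxygenase that oxidizes drugs and trimethylamine-like compounds, measured 12.18, 12.45 and 12.20 with APB and 11.94, 11.51 and 11.88 with PPB. The difference was 0.50 ± 0.16, or 1.42-fold, and 0.37 without senior PPB dog 2. A second FMO1 probe set differed by 0.07. MAOA, a monoamine oxidase, differed by −0.70 ± 0.30, mainly through 4.72 in senior PPB dog 2, and by −0.31 without it. Among 19 phase I enzymes 6 were higher and 13 lower, with a median of −0.10. The direction turned with the covariate, where 11 were higher and 8 lower with a median of 0.09, and without senior PPB dog 2 there were 9 higher and 10 lower.

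In the retinoid list, RARA, a retinoic acid receptor, measured 5.65, 5.98 and 5.73 with APB and 6.51, 8.27 and 6.33 with PPB, opposite in direction to ALDH1A1. Its difference of −1.25 was −0.63 without senior PPB dog 2. RDH5, a retinol dehydrogenase, differed by −0.50 ± 0.20. The 15 genes of the list had 8 higher and a median of 0.03.

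Chaperones of the endoplasmic reticulum and of the cytosol did not share a direction. HSPA5, the main chaperone of the endoplasmic reticulum, measured 4.33, 2.29 and 4.87 with APB and 4.49, 5.62 and 6.34 with PPB, a difference of −1.65 ± 0.81. CALR, calreticulin, differed by −1.46 ± 0.79, with 9.44 in senior PPB dog 2, and by −0.52 without it. With the covariate these were −0.89 and −0.73. The 12 genes of that list had 7 lower and a median of −0.07, or 8 lower and −0.22 without senior PPB dog 2. The 14 heat shock proteins had 9 higher with APB and a median of 0.22, or 0.09 without senior PPB dog 2, and beside HSPH1 the differences of DNAJB4 and HSP90AA1 were 1.07 ± 0.61 and 0.60 ± 0.34. HSP90AA1 was 0.23 without senior PPB dog 2 and 0.39 with the covariate.

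Genes of secreted liver proteins went both ways. SERPINA3, an acute phase protease inhibitor, measured 12.66, 12.06 and 12.51 with APB and 12.80, 13.11 and 12.81 with PPB, without overlap, a difference of −0.50 ± 0.22. The 14 acute phase genes had 7 in each direction and a median of 0.01, or 9 higher and a median of 0.05 without senior PPB dog 2. The 20 genes of complement and coagulation had 10 in each direction and a median of −0.04, or 13 lower and a median of −0.12 without senior PPB dog 2.

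In the complement and coagulation list 4 of 20 genes were more than 2-fold lower with APB and none more than 2-fold higher. Beside C8B these were the complement genes C5 (−1.62 ± 1.32) and C8A (−1.33 ± 1.26) and plasminogen, PLG (−1.62 ± 1.86), the last 3 named after their values were seen. With the covariate C5, C8A and PLG were −0.17, −0.08 and 0.41, while C8B was −0.92. Without APB dog 2, C5, C8A and PLG were −0.63, −0.40 and −0.19. Apolipoproteins had 4 of 11 genes higher and a median of −0.08. APOA4, an apolipoprotein of triglyceride-rich particles, differed by 2.01 ± 1.42 through APB dog 2 at 9.60, with 3.49 to 4.33 in the other 5 dogs. Oxidative phosphorylation had a median of 0.02 over 25 genes, and the cytosolic ribosomal proteins 0.03 over 41.

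Interferon response genes followed single dogs. Of 10 tested, 9 were higher with APB and the median was 0.26, yet the mean deviation of the list was 1.93 in APB dog 1, −0.24 in APB dog 2 and −1.24 in APB dog 3. In the PPB dogs it was −0.51, 0.04 and 0.01, inside the APB range. CXCL10, an interferon-induced chemokine, differed by 1.19 ± 0.93, or 0.77 with the covariate.

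Cell type markers were read for the same dogs. Hepatocyte markers had a median of −0.00 over 7 genes. Markers of stellate cells, fibroblasts and smooth muscle were lower with APB for 8 of 9 genes, with a median of −0.37. ACTA2, smooth muscle actin, measured 10.14, 10.49 and 9.76 with APB and 10.28, 11.91 and 11.10 with PPB, and MYH11, smooth muscle myosin, 5.64, 5.96 and 5.21 against 5.87, 8.06 and 6.25. Both were highest in senior PPB dog 2, and without it their differences of −0.97 and −1.12 became −0.56 and −0.46. The list's median was then −0.14, with 8 of 9 still lower, and with the covariate it was −0.43, also with 8 lower.

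Extracellular matrix genes followed the same dog. Of 20 tested, 19 were lower with APB, but the median was only −0.24, and −0.11 with 16 lower without senior PPB dog 2. With the covariate the median was −0.27 with 18 lower. The one higher gene was TIMP3, an inhibitor of matrix proteases, at 0.44 ± 0.34, or 0.18 without senior PPB dog 2 and 0.19 with the covariate, named here after its value was seen, and its 4 other probe sets differed by −0.05 to 0.28. COL14A1, a collagen of fibril surfaces, measured 5.60, 6.34 and 5.99 against 6.39, 7.37 and 6.71, without overlap, a difference of −0.85 ± 0.37 that was −0.57 without that dog. DCN, the matrix proteoglycan decorin that is also on the stellate list, differed by −0.97 ± 0.57, or −0.38 without that dog. MYL9, PCOLCE and these lists thus varied together with senior PPB dog 2, whose markers of endothelial cells (mean deviation 0.80) and of T and natural killer cells (1.09) were the highest of the 6 dogs as well, and the part of tissue makeup in these differences was not tested.

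Markers of cholangiocytes were higher with APB in all 4 genes tested of 10 listed, with a median of 0.74, or 0.58 without senior PPB dog 2 and 0.89 with the covariate. EPCAM, an adhesion protein of bile duct epithelium, measured 9.32, 9.40 and 8.82 with APB and 8.90, 7.88 and 8.63 with PPB. WFDC2, a secreted protease inhibitor of ducts, measured 10.63, 10.98 and 10.22 against 6.25, 10.84 and 8.20, and a second probe set of it differed by 0.36. In the young adult dogs WFDC2 averaged 3.87 with APB and 3.97 with PPB, near the floor of 3, while EPCAM averaged 8.79 and 8.96. Whether WFDC2 follows duct cells in these livers was not tested. Senior PPB dog 2 lay among the APB dogs for WFDC2, so the difference of 2.18 ± 0.90 was 3.39 without it, but PPB dog 1 was the lowest and without that dog the difference was 1.09. For EPCAM senior PPB dog 2 was the lowest, and the difference of 0.71 was 0.41 without it and 0.44 with the covariate. DMBT1 and TFF3, which were lower with APB, are also made by ducts and mucous epithelia. Kupffer cell and macrophage markers had 6 of 11 genes higher and a median of 0.00, but 9 higher and a median of 0.26 without senior PPB dog 2, and 8 higher and 0.14 with the covariate.

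The same diet contrast in the young adult dogs was set beside that of the senior dogs. The test of the difference between the ages, the interaction of age and diet, called 0 of 12425 probe sets (0%), with a smallest adjusted p of 0.811 and 464 at an unadjusted p under 0.05. A pair of young adult arrays limits the reading. APB dogs 1 and 2 had 3′ minus 5′ differences of 9.21 and 8.80, against 3.37 to 4.93 in the other 4 young adult dogs, and leaving them out left 1 young adult APB dog. Of the 15 leading probe sets that were higher with APB in the senior dogs, 12 had the same sign in the young adult dogs, or 7 without those 2 arrays, and of the 15 lower ones 10, or 6 without them.

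PDLIM3, ALDH1A1 and MFSD2A differed by 0.47, 0.27 and −0.30 in the young adult dogs, and by 0.04, −0.03 and 0.45 without the 2 arrays. PFKP differed by 1.10 in the young adult dogs, opposite to the senior dogs, and by 2.02 without the 2 arrays, yet its interaction had an adjusted p of 0.811 like the smallest of all. ACTA2 and COL14A1 were 1.02 and 0.75 higher with APB in the young adult dogs, and 0.39 and −0.02 without the 2 arrays. TMEM97 and LCAT differed by −1.03 and −0.64, the same direction as in the senior dogs, and by −0.11 and −0.24 without them. Cholesterol synthesis had a median of −0.64 with 7 of 10 genes lower in the young adult dogs, but 0.49 with 2 of 10 lower when the 2 arrays were left out, so the sign at the younger age turned on those arrays.

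**Figure D4:**
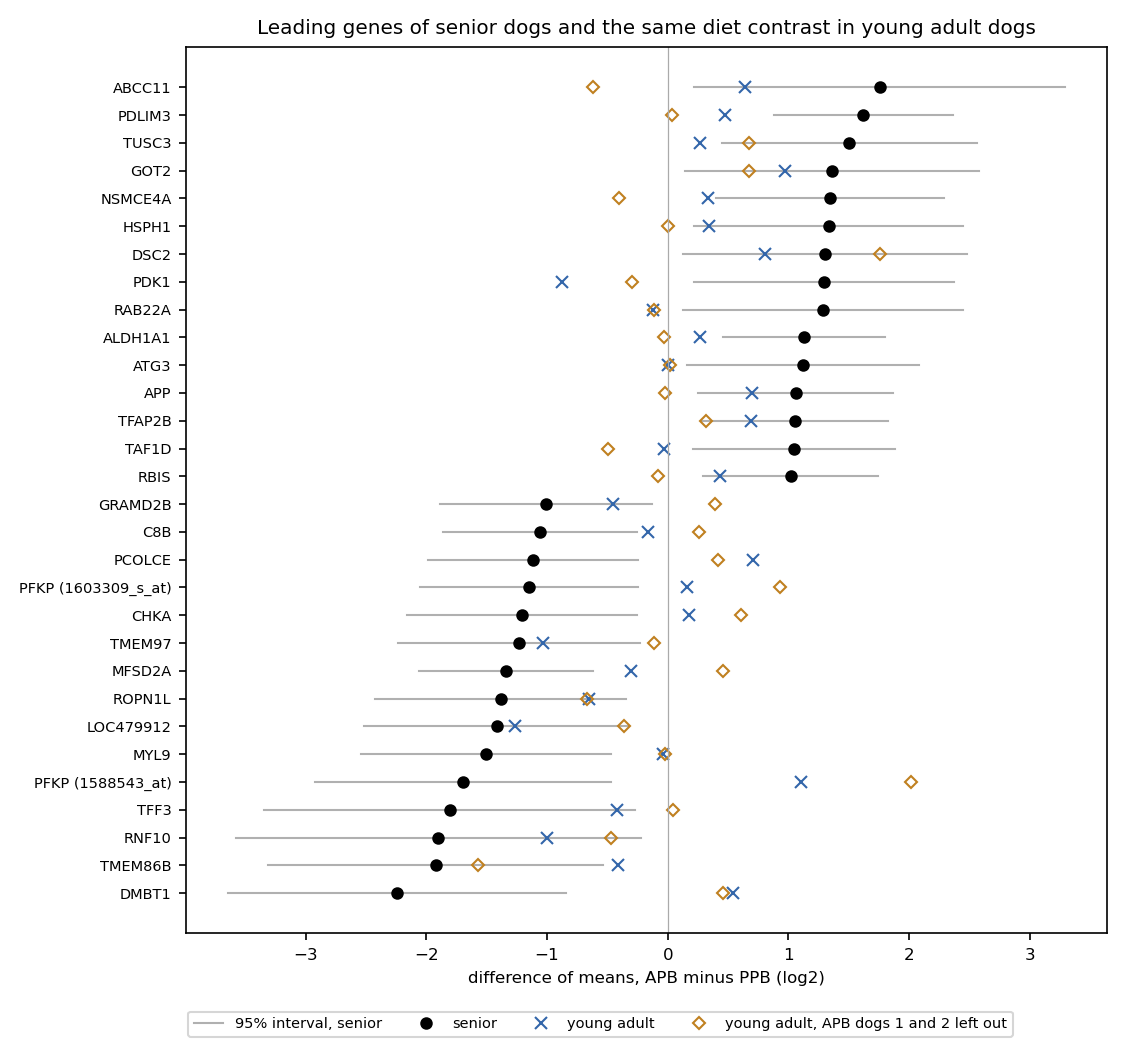
Difference of means, APB minus PPB (x axis, log2), for the 30 probe sets of smallest p among those more than 2-fold apart without overlap in the senior dogs (y axis, 15 per direction, gene symbols, with the probe set where a gene has a pair). Black points and grey bars are the senior dogs with 95% intervals, crosses the young adult dogs, and diamonds the young adult dogs with APB dogs 1 and 2 left out. The senior values were selected for their size, and PFKP lies at −1.70 in senior and 1.10 in young adult dogs.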

How the data were processed

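The values are the authors' deposited log2 expression values, made with GCRMA, which corrects background from probe sequence, normalizes arrays by quantiles and gives 1 value per probe set. The version was not given in the sources used here. The deposited table has 23913 probe sets, and 77 controls were left out of the tests. A probe set was tested if 3 or more of the 12 arrays had it at a log2 value of 3 or above (12425). Symbols came from the platform annotation: 10549 probe sets had 1 symbol, 138 several and 13149 none, and 10046 of the first were found by Entrez ID in the RefSeq gene table, which changed 0 symbols. For lists, the probe set of highest mean stood for a gene.

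A mean per age and diet group was fitted to all 12 arrays with limma 3.58.1 in R 4.3.3 (8 residual and 1.51 prior degrees of freedom), with Benjamini-Hochberg adjustment over all probe sets tested. The contrast was senior APB minus senior PPB. The thresholds followed the methods of the study: a difference exceeding 2-fold whose adjusted p was below 0.1. The 3′ minus 5′ difference was averaged over control probe sets of 4 transcripts and tested by exact permutation. Named genes were PDLIM3, ALDH1A1 and MFSD2A, which the study names for this contrast, the 15 probe sets per direction of smallest p among those more than 2-fold apart without overlap, and list members with an unadjusted p under 0.05 or among the 4 smallest p of a list. Exceptions are marked, and not every gene covered is printed. The comparison, the lists and the named genes were chosen with earlier results of these data known. Other filters, including as many probe sets as the methods call expressed, priors, weights, scalings, the covariate, a replicate block and leaving out each dog were tried. The model was tested on simulated data. The number of arrays limits the precision.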

Additional observations from a re-analysis of the deposited data

How the results depend on the processing

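For diet in senior dogs, the number of probe sets past the thresholds was 0 under every alternative run except 3 kinds: it was 1 with array weights, 5 when an unadjusted p under 0.005 replaced the adjusted p, and 0 to 2 when 1 dog was left out (2 without senior PPB dog 1, and 1 without senior APB dog 3, which was TUSC3 at 2.17 with an adjusted p of 0.055 by limma). The number at an unadjusted p under 0.05, 377 in the report, was 1812 with array weights, 251 with the 3′ minus 5′ covariate and 148 to 1305 without 1 dog. It was 208 with the senior arrays alone and without senior PPB dog 2, an alternative chosen after seeing the data. Quantile normalization gave 197 higher and 196 lower, median centring 240 and 142 and the covariate 113 and 138, against 215 and 162. The interaction of age and diet called 1 probe set without young adult APB dogs 1 and 2, and 0 to 190 without 1 dog (190 without young adult APB dog 3). The 3′ minus 5′ difference between diets, 1.52, ranged from 0.59 to 2.34 without 1 dog. The cause of these shifts was not tested.

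Dogs of the same number did not vary together across diets (correlations of −0.06, −0.16 and −0.13), so the numbers do not pair them. With a replicate block, 0 probe sets passed and 419 had an unadjusted p under 0.05. Among the genes printed above, other probe sets of the gene reversed the sign for GOT2 (−0.0542, −0.0806, −0.41, −0.71 and −1.47), ABCC11 (-6e-04) and TIMP3 (−0.0053 and −0.0548). Of 1690 other recomputed differences of printed genes, 1688 kept their direction and side of the threshold, the exceptions being TUSC3 and PLG (0.41 with the covariate). None of these genes passed the thresholds to begin with, so the side of the threshold was almost fixed in advance. Their sizes did move: C5 ranged from −2.16 to −0.17 and APOA4 from 0.18 to 2.95, while MFSD2A ranged from −1.46 to −1.06. Of 1134 recomputed list medians, 1109 stayed within a limit, the SD between dogs of the list's mean level pooled over the diets. That limit is wide for lists that vary much between dogs, so this count does not measure stability. Signal near background and 3 dogs per diet limit what could be resolved.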
